A study of Homo sapiens with 21 samples.

Results

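UM171 is a small molecule used to expand human hematopoietic stem cells in culture, and OCI-AML5 is an established human acute myeloid leukemia cell line. Described here are the genes whose RNA was raised in OCI-AML5 cells after 6 h of UM171 and was no longer raised at 24, 48 and 72 h. They were chosen from mean TPM (transcripts per M, a level per length and per library) over 3 libraries per group, with 0.1 TPM added to each mean. A gene was taken when its 6 h mean was at least 2.5 times that of DMSO and at least 2 TPM, and when its means at 24, 48 and 72 h were each under 1.5 times that of DMSO. These limits took 49 of 58174 genes. The choice used the levels in DMSO and at all 4 times of UM171 in control cells, so those levels are given as a description and carry no test. The one response that did not enter the choice is that of the sgEPCR cells.

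The control cells were OCI-AML5 in DMSO, the vehicle, labelled 72 h, and OCI-AML5 in UM171 for 6, 24, 48 and 72 h, at 500 nM by the labels and at another dose in the legend of the study. Their labels name no guide RNA. The sgEPCR cells carry a guide against PROCR, the gene of the endothelial protein C receptor (EPCR), and were kept in DMSO or in UM171 at 500 nM, both for 24 h. The labels call them a clone, and describe it as a knockdown in one field and as null in another. Each of the 7 groups had 3 libraries, 21 in all. A 6 h library was thus compared with a DMSO library labelled 72 h, and hours in culture and hours of UM171 cannot be told apart. The study's text speaks of several independent sgEPCR clones, but no label ties a library to one. No label says that libraries of a group came from separate cultures, in control or in sgEPCR cells. Their p-values therefore measure a spread between libraries that may be technical.

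RNA that rises within hours and then returns is the known pattern of primary response genes, whose transcripts are made without new protein and are often short-lived. UM171 is known to cause loss of the LSD1-CoREST complex, which removes histone marks of active genes, through the ubiquitin ligase adaptor KBTBD4.

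Poly(A) libraries held 24.3 to 51.5 M counts each, with a median of 33.9 M. Mitochondrially encoded genes took 7.73 to 13.5% of the counts in 19 libraries and over 20% in sgEPCR DMSO replicate 1 and sgEPCR UM171 replicate 2. Those 2 libraries had the lowest TPM of their group for 28 and 30 of the 37 well-counted genes described below, and for 90.3% and 88.4% of all tested genes. Counts of members called in sgEPCR cells are therefore given with and without them. PROCR had 3.37 to 4.3 TPM in control DMSO and 48.5 TPM in each control library at 24 h. It had 2.3 to 4.53 TPM in sgEPCR DMSO and 4.23 to 8.94 TPM in sgEPCR cells in UM171, so its RNA was still present in cells labelled as edited. Myeloid markers summed to 892 to 2690 TPM per library. Erythroid markers were under 0.1 TPM in every group, and T cell markers summed to 1.38 to 1.86 TPM in DMSO and 5.17 to 5.59 TPM at 6 h, with 2 of 5 at 1 TPM or more. B cell markers summed to 6.25 to 43.3 TPM, fibroblast markers to at most 3.84 TPM and epithelial markers to at most 1.02 TPM. The part of these markers in the results was not tested. In bulk RNA, fewer cells of a type and less RNA per cell cannot be told apart.

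Raised RNA at 6 h was mostly not transient in these cells. Of 560 genes that met the 2 limits at 6 h, 511 were at 1.5 times DMSO or more at 1 or more later times, and 373 at all of them. The 49 genes are the remaining 8.75%.

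The 49 genes differ widely in how many reads stand behind them. In 10 of them the 3 libraries at 6 h together held at most 3 counts, all in a single library. These are RNA5SP82 and RNA5SP268, pseudogenes of 5S ribosomal RNA, 3 Y RNA genes, the microRNA genes MIR659, MIR4313 and MIR8055, and ENSG00000225480 and ENSG00000234604, annotated as processed pseudogenes. Their lengths are 92 to 124 bases, so that 1 read is worth many TPM: the single count of RNA5SP82 in 6 h replicate 3 was listed as 51.5 TPM, and that of MIR659 in replicate 1 as 20.4 TPM. RNA5SP82 was also listed at 34.6 TPM in sgEPCR UM171 replicate 3. At this depth no difference is detectable for these 10. RPL39P36, a ribosomal protein pseudogene, and ENSG00000276026 had 12 and 18 counts at 6 h.

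The other 37 genes, with at least 50 counts at 6 h, had 58 to 4840 counts and are described from here on. This limit of 50 was set after the counts were seen.

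**Figure D1:**
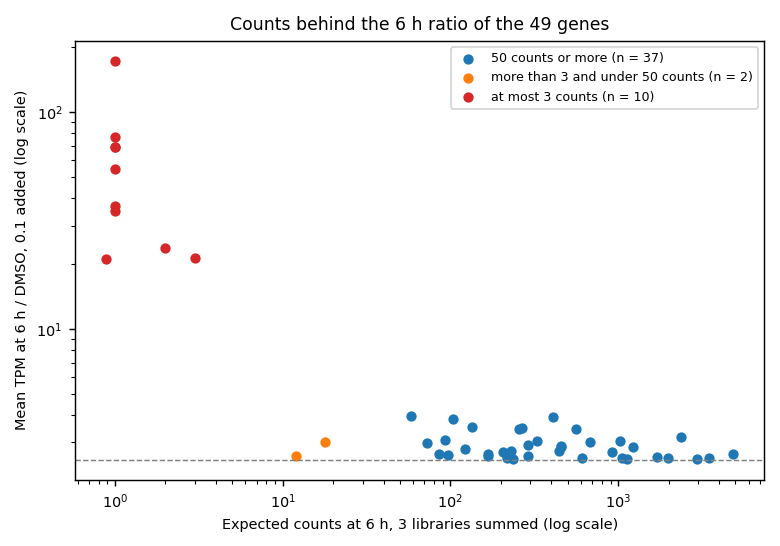
Counts behind each of the 49 genes. The x axis is the expected count at 6 h summed over 3 libraries and the y axis is the ratio of mean TPM at 6 h to DMSO, with 0.1 TPM added, both on log scales, and the dashed line is the limit of 2.5. All ratios above 4 belong to the 10 genes with at most 3 counts, while the 37 genes with 58 to 4840 counts lie between 2.51 and 3.99.

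The 6 h ratio of the 37 genes ran from 2.51 to 3.99 with a median of 2.73. In all 37 the lowest 6 h library was above the highest DMSO library and above every library of 24, 48 and 72 h, and their highest level over all 21 libraries was at 6 h. Over all 16575 genes tested in control cells, 42.4% had all 6 h libraries above all DMSO libraries, and since the choice used this contrast nothing is read from the count. The median ratio to DMSO was 1.01 at 24 h, 0.92 at 48 h and 1.06 at 72 h. Levels were low: the median was 1.36 TPM in DMSO and 3.79 TPM at 6 h, with 24 genes under 5 TPM and 9 above 10 TPM at 6 h.

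TPM1 was the highest of them. It encodes tropomyosin 1, which binds along actin filaments. Its 3 DMSO libraries had 16.2, 19.1 and 15.3 TPM, and its 6 h libraries had 45.6, 39.2 and 44.9 TPM. At 24 h they had 26.0, 22.8 and 23.0 TPM, and at 72 h 18.8, 19.4 and 19.1 TPM, which overlaps the DMSO range. The 24 h libraries were all above DMSO, so TPM1 came back in steps. CHST2, a sulfotransferase that adds sulfate to N-acetylglucosamine in glycans such as selectin ligands, behaved alike. It had 6.34, 5.92 and 6.46 TPM in DMSO and 15.8, 16.7 and 17.5 TPM at 6 h. At 48 h it still had 10.5, 9.68 and 6.91 TPM, all above DMSO, and at 72 h 6.25, 6.0 and 6.32 TPM, within the DMSO range.

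Both genes of fatty acid handling were back at the DMSO level at 24 h. CYP4V2 encodes a cytochrome P450 that hydroxylates fatty acids and is mutated in Bietti crystalline dystrophy, and CROT encodes the peroxisomal carnitine octanoyltransferase, which readies shortened fatty acids for export from peroxisomes. CYP4V2 had 3.24, 4.15 and 3.89 TPM in DMSO, 12.3, 11.9 and 12.4 TPM at 6 h, and 3.65, 3.4 and 3.29 TPM at 24 h. CROT had 3.15, 3.9 and 4.41 TPM in DMSO, 8.81, 8.97 and 11.5 TPM at 6 h, and 3.67, 4.62 and 3.75 TPM at 24 h. In both genes the 24 h libraries overlapped those of DMSO. CYP4V2 then had 2.54, 3.15 and 2.71 TPM at 48 h, all below DMSO. At 72 h it had 4.25, 5.04 and 4.9 TPM, all above DMSO. CROT overlapped DMSO at 48 and 72 h. In a list of 25 genes of fatty acid handling, most of them peroxisomal, 22 were tested in edgeR's quasi-likelihood test with Benjamini-Hochberg adjustment, which calls a gene at an adjusted p under 0.05. At 6 h 11 were higher and 3 lower with a median log2 fold change of 0.24, where 31.8% of all tested genes were higher and 30.3% lower with a median of 0.02. The 11 include CROT and CYP4V2, whose calls were fixed by the choice of genes for their rise at 6 h. Outside the 49 genes, ABCD2, a peroxisomal fatty acid transporter, had a log2 fold change of 1.53 ± 0.10 (SE).

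DDX60 was the innate immune gene among the 37. It encodes an interferon-inducible helicase of the antiviral RNA-sensing pathway. It had 4.41, 4.0 and 4.28 TPM in DMSO and 10.1, 10.6 and 11.6 TPM at 6 h. At 24 h it had 5.87, 5.72 and 5.83 TPM, all above DMSO, and at 48 h 4.02, 4.34 and 3.97 TPM, which overlapped DMSO. Its 6 h ratio of 2.51 is the lowest of all members. A list of 34 interferon-stimulated genes that did not include DDX60 held no member. All 34 were tested, and at 6 h 24 were higher and 4 lower with a median log2 fold change of 0.80. The shares of all tested genes at 6 h were 31.8% and 30.3%. At 24 h 22 were higher, at 48 h 21 and at 72 h 22, where 34.9%, 37.1% and 38.8% of all tested genes were higher. The 3 with the largest change at 6 h were EPSTI1 (log2 fold change 2.99 ± 0.21), USP18 (2.34 ± 0.18) and OAS3 (2.33 ± 0.34). IFIH1, which encodes the RNA sensor MDA5, was singled out after its values were seen. It had a mean of 3.3 TPM in DMSO and 10.1 TPM at 6 h and stayed outside the 49 genes with 5.75 TPM at 72 h. RSAD2, an antiviral enzyme gene singled out in the same way, had 1.86 TPM in DMSO, 5.41 TPM at 6 h and 2.87 TPM at 24 h, and stayed outside because of 24 h.

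ANG encodes angiogenin, a secreted ribonuclease that cuts tRNA under stress. It had 1.49, 1.98 and 1.89 TPM in DMSO, 4.59, 4.69 and 5.14 TPM at 6 h, and 3.01, 2.63 and 2.42 TPM at 72 h, again above DMSO. It overlaps RNASE4 on the same strand, and RNASE4 had a log2 fold change of 0.95 ± 0.27 at 6 h (adjusted p = 0.0056 in edgeR's quasi-likelihood test). Reads could be split between them, so the value of ANG is uncertain. LXN encodes latexin, an inhibitor of carboxypeptidases that limits hematopoietic stem cell number in mice. Its DMSO libraries had 3.18, 4.14 and 2.8 TPM and its 6 h libraries 8.63, 11.6 and 10.9 TPM, and at 24 h it had 4.32, 5.08 and 3.73 TPM, overlapping DMSO. LXN lies on the opposite strand within GFM1, which fell by 0.27 ± 0.05 on the log2 scale at 6 h. The libraries were made with a stranded kit, while whether the counting used strand is not given in the sources used here.

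**Figure D2:**
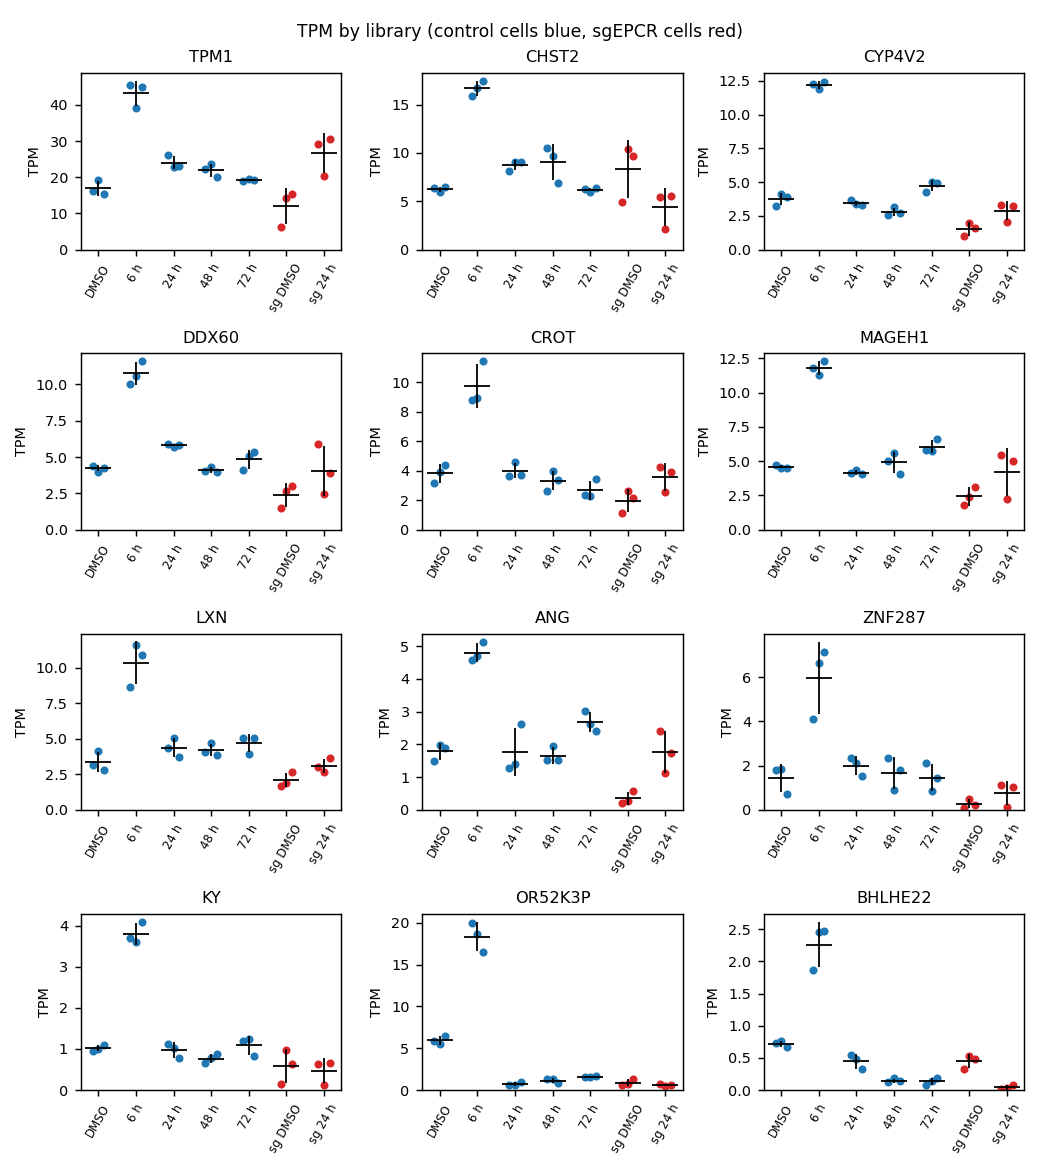
TPM of 12 genes in each of the 21 libraries. Each point is a library, the horizontal bar is the mean and the vertical bar the SD of 3 libraries, blue for control cells (DMSO and 4 times of UM171) and red for sgEPCR cells (DMSO and UM171 for 24 h), and every y axis starts at 0. In all 12 panels the 6 h points are the highest, while at later times OR52K3P and BHLHE22 lie below DMSO and TPM1 and CHST2 lie above it at 24 and 48 h.

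MAGEH1 is a member of the type II MAGE genes, many of whose proteins bind ubiquitin ligases. It had 4.72, 4.53 and 4.52 TPM in DMSO, 11.8, 11.3 and 12.3 TPM at 6 h, and 4.1, 4.35 and 4.03 TPM at 24 h, all below DMSO. Of 12 type II MAGE genes 4 were tested, and at 6 h MAGEH1 and MAGEF1 (log2 fold change 2.44 ± 0.29) were called higher. Of all tested genes 31.8% were called higher at 6 h. The call of MAGEH1 was fixed by the choice of genes. BHLHE22, a transcription factor of developing neurons, had 0.73, 0.76 and 0.67 TPM in DMSO and 1.86, 2.46 and 2.47 TPM at 6 h. At 48 h it had 0.12, 0.18 and 0.14 TPM and at 72 h 0.08, 0.14 and 0.18 TPM, all below DMSO. In a list of 32 neuronal genes of the kind that REST represses, 13 were tested. At 6 h 9 were higher and 4 were not called, where 31.8% of all tested genes were higher. The 9 include BHLHE22, whose call was fixed by the choice. SCN3A, a neuronal sodium channel gene, had the largest change (8.56 ± 0.47), followed by CHGB (2.17 ± 0.42) and BHLHE22 itself (1.48 ± 0.18).

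Of 20 carbohydrate sulfotransferases, the enzyme class of CHST2, 11 were tested. At 6 h 8 were higher and 2 lower, beside 31.8% and 30.3% of all tested genes. The 8 include CHST2, whose call was fixed by the choice. UST had a log2 fold change of 2.16 ± 0.09 and CHST4 of 1.54 ± 0.12. A list of 27 immediate early genes, the classical primary response genes, held none of the 49. No library was taken before 6 h of UM171, so a rise that had ended by then could not be seen. Nothing is therefore read from their absence. Of the 26 list genes tested, 2 were higher and 13 lower at 6 h, 8 and 13 at 24 h, 17 and 9 at 48 h and 18 and 5 at 72 h. Over all tested genes 34.9% were higher and 34.8% lower at 24 h. At 48 h 37.1% of all tested genes were higher, and at 72 h 38.8%. At 6 h EGR1 was higher (1.75 ± 0.17), and ZFP36 and FOS were lower (-1.09 ± 0.11 and -1.03 ± 0.07). Of 16 tested genes of the LSD1-CoREST complex and KBTBD4, none of them a member, 5 were higher and 10 lower at 6 h. The shares of all tested genes were 31.8% and 30.3%. The largest changes were those of RCOR2 (1.505 ± 0.21), PHF21A (0.55 ± 0.11) and RCOR1 (-0.53 ± 0.03). These are RNA levels, which do not measure loss of the complex as protein.

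There were 4 zinc finger genes named ZNF among the 37: ZNF114, ZNF287, ZNF540 and ZNF883. Most genes of this family encode DNA-binding repressors. They made up 11.1% of the 36 genes with an annotation record, and ZNF-named genes made up 3.07% of all tested genes. ZNF287 had 1.8, 1.83 and 0.71 TPM in DMSO and 4.09, 6.63 and 7.15 TPM at 6 h. ZNF883 had 4.29, 3.96 and 4.82 TPM in DMSO and 11.2, 11.2 and 11.8 TPM at 6 h. At 24 h ZNF883 was still above DMSO in every library, with 6.82, 6.74 and 5.79 TPM, while ZNF287 overlapped DMSO with 2.34, 2.11 and 1.51 TPM. ZNF114 had 1.52, 2.08 and 1.92 TPM in DMSO and 4.33, 5.3 and 4.81 TPM at 6 h. Of the 4, ZNF540 was the lowest. ZNF540 had 0.86, 0.69 and 0.38 TPM in DMSO, 2.14, 2.69 and 2.65 TPM at 6 h and 0.28, 0.14 and 0.44 TPM at 24 h. Over all 504 tested ZNF-named genes, 198 were higher and 111 lower at 6 h, with a median log2 fold change of 0.12. The 198 include the 4 members, whose calls were fixed by the choice. Over all tested genes 31.8% were higher and 30.3% lower. At 24 h the split was the other way, with 100 higher and 264 lower and a median of -0.24, beside 34.9% higher and 34.8% lower over all tested genes. Zinc finger genes of a cluster are alike in sequence, and reads may be split among them.

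KY, the kyphoscoliosis peptidase of muscle, had 0.95, 1.01 and 1.1 TPM in DMSO and 3.69, 3.6 and 4.09 TPM at 6 h, a ratio of 3.48. At 24 h its 1.13, 1.02 and 0.77 TPM overlapped DMSO. FGD2, an exchange factor that activates the small GTPase CDC42, had 0.63, 0.41 and 0.84 TPM in DMSO and 2.37, 1.97 and 2.03 TPM at 6 h. RNF32, a RING finger gene, had 1.9, 1.51 and 2.54 TPM in DMSO and 6.13, 5.04 and 5.57 TPM at 6 h. Both FGD2 and RNF32 overlapped DMSO at 24 h. The further protein-coding members were C3orf70, CHD9NB, TMEM232 and TSACC, a co-chaperone of a testis kinase. Their 6 h means were 2.43 to 3.75 TPM, with ratios of 2.52 to 2.85.

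Of the 36 genes with a record in GENCODE 44, 21 (58.3%) are protein coding, 10 (27.8%) are long non-coding RNAs and 5 (13.9%) are pseudogenes. Over all tested genes these shares were 79.6%, 12.8% and 6.21%. Of the long non-coding RNAs without a symbol, ENSG00000176593 had 3.45, 4.17 and 4.57 TPM in DMSO and 10.6, 11.7 and 9.35 TPM at 6 h, and ENSG00000278041 had 1.45, 1.35 and 1.33 TPM and 4.06, 3.83 and 3.83 TPM. ENSG00000278932 went from 1.29, 1.53 and 1.4 TPM to 2.65, 4.45 and 4.64 TPM. In each of them the 6 h libraries lay above the DMSO libraries. The annotated genes lie on 20 chromosomes, with at most 4 on any of them. TPM1 is at chr15:63042620-63071915, CHST2 at chr3:143119771-143124014, CYP4V2 at chr4:186191567-186213463, DDX60 at chr4:168216291-168318883 and CROT at chr7:87345664-87399794, all as whole genes in GRCh38.

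**Figure D3:**
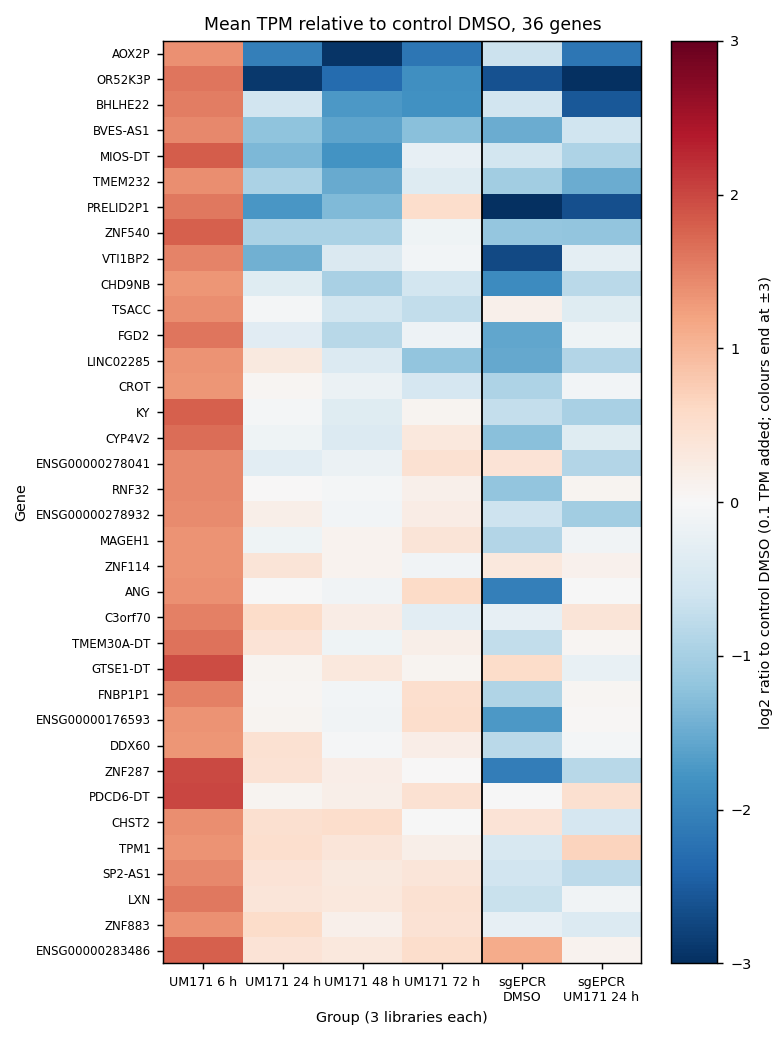
Well-counted genes across groups, 36 of them shown. Each cell is the log2 ratio of a group's mean TPM to that of control DMSO (0.1 TPM added, 3 libraries a group), red above and blue below, with colours ending at 3 in both directions, and genes are ordered by their mean log2 ratio at 24, 48 and 72 h. The 6 h column is red throughout because it chose the genes, the 9 genes that fell under 0.5 of DMSO at some later time lie mostly at the top, and the sgEPCR DMSO column is below control DMSO for most genes.

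A group of 9 genes did not only return but went under 0.5 of the DMSO mean at 1 or more later times, and OR52K3P, AOX2P and BVES-AS1 did so at all of them. OR52K3P is an olfactory receptor pseudogene. It had 5.87, 5.5 and 6.51 TPM in DMSO, 19.98, 18.6 and 16.5 TPM at 6 h, and 0.66, 0.57 and 0.93 TPM at 24 h. At 72 h it had 1.61, 1.58 and 1.62 TPM, so that every later library was below every DMSO library. AOX2P, an aldehyde oxidase pseudogene, had 0.63, 0.56 and 1.18 TPM in DMSO, 1.64, 2.72 and 2.3 TPM at 6 h and 0.05, 0.08 and 0.21 TPM at 24 h. Its overlapping transcript AOX3P-AOX2P, on the same strand, had a log2 fold change of 0.88 ± 0.42 at 6 h and was not called, and reads may be shared between them. BVES-AS1 had 0.89, 1.41 and 1.57 TPM in DMSO, 3.07, 5.57 and 2.44 TPM at 6 h, and 0.58, 0.55 and 0.38 TPM at 24 h. The other genes of this group were MIOS-DT, PRELID2P1 and BHLHE22, at 2 later times, and VTI1BP2, TMEM232 and LINC02285, at a single time. LINC02285, a long non-coding RNA, had 1.19, 1.44 and 1.96 TPM in DMSO, 3.44, 4.15 and 4.49 TPM at 6 h and 0.83, 0.46 and 0.58 TPM at 72 h. A separate group stayed closest to the upper limit: the highest later ratio was 1.48 for ANG, 1.47 for C3orf70 and 1.47 for ZNF883.

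The limits separate genes of nearly equal values. Just inside the 6 h limit of 2.5 were DDX60 (2.51), CROT (2.51) and CHD9NB (2.52), and just outside were SNORD9 (2.49), FLVCR2 (2.48) and COL24A1 (2.47). Just inside the level limit of 2 TPM were ENSG00000225480 (2.01), RNA5SP268 (2.04) and PDCD6-DT (2.06), and just outside were EIF1B-AS1 (1.99), RNA5SP309 (1.97) and MSR1 (1.96). Just outside the later limit of 1.5 were B3GALT9 (1.5), HERC2P4 (1.502) and CTSO (1.51). CTSO, a lysosomal protease gene, had a mean of 6.46 TPM in DMSO, 20.1 TPM at 6 h, 5.88 TPM at 24 h, 4.19 TPM at 48 h and 9.8 TPM at 72 h, and so stayed out because of 72 h alone.

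Counts and TPM did not give the same fold for every gene. In edgeR, on counts scaled by TMM, all 37 genes were tested and called at 6 h, and log2 fold changes ran from 1.00 to 2.02 with a median of 1.30. As the choice used this contrast, the 31.8% of all tested genes called higher is given beside it and nothing is read from it. Past an adjusted p below 0.0001 and more than 2-fold were 24 of them, beside 6.78% of all tested genes. With total count scaling in place of TMM, 7427 of all genes were higher and 2443 lower at 6 h in place of 5273 and 5028, the median of all genes moved from 0.02 to 0.20, and the same count of 37 members was called. RSEM's length of a gene depends on which isoforms it assigns, and 29 of the 37 had lengths at 6 h within 10% of those in DMSO. GTSE1-DT had a mean length of 1372 bases in DMSO and 893 bases at 6 h, with a TPM ratio of 3.86 and a count fold of 2.45. ENSG00000283486 went from 1982 to 1398 bases, with a TPM ratio of 3.46 and a count fold of 2.43.

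Of the 37 genes, 9 start head to head with another tested gene on the opposite strand, with starts at most 849 bases apart. Most of these 9 are non-coding RNAs. Of the partners, 5 were called higher and 3 lower at 6 h, beside 31.8% and 30.3% of all tested genes. On the log2 scale 0 partners were above 1. The genes were chosen for their rise at 6 h and the partners were not, so nothing is read from the partners having smaller changes. TMEM30A-DT starts 44 bases from TMEM30A, which had a log2 fold change of -0.03 ± 0.08 at 6 h (adjusted p = 0.79 in edgeR's quasi-likelihood test), while TMEM30A-DT had 0.67, 0.49 and 0.96 TPM in DMSO and 2.68, 2.41 and 2.07 TPM at 6 h. PDCD6-DT had 0.4, 0.1 and 0.82 TPM in DMSO and 2.57, 1.24 and 2.36 TPM at 6 h, beside a fall of PDCD6 (-0.43 ± 0.05). GTSE1-DT had 0.44, 0.4 and 0.55 TPM in DMSO and 1.9, 1.8 and 2.52 TPM at 6 h, beside a fall of GTSE1 (-0.32 ± 0.06). In these 3 pairs the coding partner was not called higher. MIOS-DT had 0.3, 1.05 and 0.94 TPM in DMSO and 2.52, 1.71 and 4.62 TPM at 6 h, while MIOS, part of a nutrient-sensing complex, was higher by 0.34 ± 0.05. BVES, the partner of BVES-AS1, was higher by 0.82 ± 0.08. The non-coding SP2-AS1 had 1.06, 1.52 and 0.92 TPM in DMSO and 2.99, 3.75 and 3.27 TPM at 6 h. CROT starts 104 bases from TP53TG1 (0.65 ± 0.16), RNF32 from RNF32-DT (0.54 ± 0.13) and TMEM232 from SLC25A46 (-0.11 ± 0.04).

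**Figure D4:**
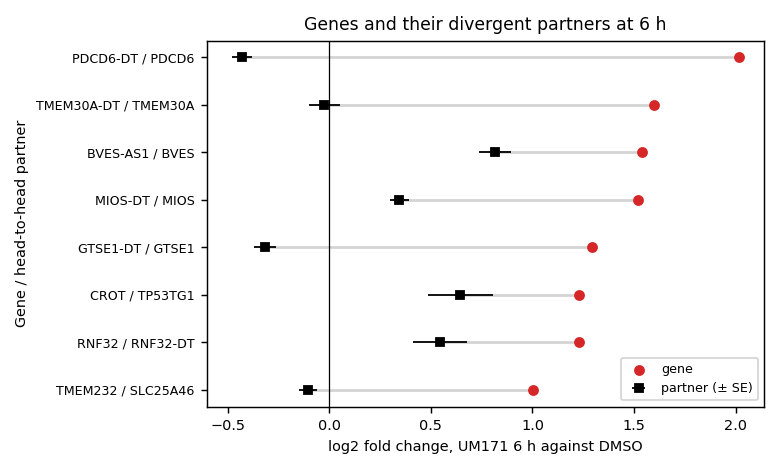
Head-to-head pairs at 6 h, 8 of them shown. The x axis is the log2 fold change at 6 h against DMSO from counts, the red circle is the gene chosen by the rule, the black square its partner on the opposite strand with its SE, and the grey line joins them. The partners lie between -0.43 and 0.82, and that all 8 lie left of their gene follows from the choice of the genes at 6 h.

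Of 9 tested neighbours that overlap a member on the opposite strand, 5 were higher and 2 lower at 6 h. The shares of all tested genes were 31.8% and 30.3%. On the log2 scale 2 of these neighbours were above 1. The lower ones were GFM1 and CCT3, a chaperonin gene opposite TSACC (-0.46 ± 0.04), while LMBR1, opposite RNF32 (-0.12 ± 0.05), and SP2, opposite SP2-AS1 (-0.16 ± 0.11), were not called. BHLHE22-AS1, which overlaps BHLHE22 on the opposite strand, had a log2 fold change of 1.91 ± 0.34 at 6 h, and POPDC3, opposite BVES-AS1, of 1.52 ± 0.21. PRELID2P1 lies within CPM on the same strand, and CPM, a carboxypeptidase gene, had 1.83 ± 0.09, so PRELID2P1 may hold reads of CPM. Its parent gene PRELID2 was higher by 0.78 ± 0.09, and both sources of reads leave the value of PRELID2P1 uncertain. Of the other pseudogenes, VTI1BP2 had 0.77, 1.23 and 1.09 TPM in DMSO and 3.53, 2.81 and 2.89 TPM at 6 h while its parent VTI1B was lower by -0.33 ± 0.04. FNBP1P1 had 1.44, 0.83 and 1.4 TPM in DMSO and 3.74, 3.83 and 3.54 TPM at 6 h, and its parent FNBP1 had a log2 fold change of 0.01 ± 0.06.

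Promoters of 18 of the 37 genes were found in RefSeq (GRCh38.p14), as 250 bases before and 50 after the start. Their median GC content was 64.2%, and that of promoters of all tested genes 65.0%. An interferon response element core, GAAANNGAA, read on both strands, was in 3 of the 18 (16.7%), in 8.29% of all 27305 promoters and in 6.81% of the 11356 promoters of tested genes. These 3 promoters were those of DDX60, at -88 and -53 from the start, of CYP4V2, at 6, and of TMEM232, at -128. A site word of NRF1, GCGCATGCG, was in those of ZNF540 and GTSE1-DT (11.1%, beside 2.10% of all promoters and 3.72% of those of tested genes). The GC box GGGCGG was in 8 of 18 (44.4%), beside 44.6% of all promoters and 68.0% of those of tested genes, and the CCAAT box CCAAT in 6 (33.3%), beside 35.7% and 36.5%. The cyclic AMP element TGACGTCA, the E-box CACGTG and the GATA word GATAAG were in 0 of 18, which says only that these letters are not in these windows. These are matches of letters and no measured binding. The 4 promoters are shown for the words that they hold, 5′ to 3′ on the strand of the gene, with capitals marking the interferon element core in DDX60 and CYP4V2 and the NRF1 word in ZNF540 and GTSE1-DT. They lie at chr4:168318703-168319002 (minus strand), chr4:186191317-186191616 (plus), chr19:37551124-37551423 (plus) and chr22:46296611-46296910 (minus).
DDX60: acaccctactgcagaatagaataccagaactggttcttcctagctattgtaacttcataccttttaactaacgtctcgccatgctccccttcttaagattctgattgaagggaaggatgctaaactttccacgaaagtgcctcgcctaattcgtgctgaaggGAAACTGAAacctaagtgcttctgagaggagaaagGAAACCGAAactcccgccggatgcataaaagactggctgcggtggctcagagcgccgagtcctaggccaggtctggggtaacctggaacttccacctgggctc
CYP4V2: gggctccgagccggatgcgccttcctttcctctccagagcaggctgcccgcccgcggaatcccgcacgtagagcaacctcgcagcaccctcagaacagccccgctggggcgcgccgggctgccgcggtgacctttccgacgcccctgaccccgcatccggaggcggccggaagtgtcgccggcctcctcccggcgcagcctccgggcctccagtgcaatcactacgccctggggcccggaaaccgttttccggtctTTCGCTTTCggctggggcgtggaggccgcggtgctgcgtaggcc
ZNF540: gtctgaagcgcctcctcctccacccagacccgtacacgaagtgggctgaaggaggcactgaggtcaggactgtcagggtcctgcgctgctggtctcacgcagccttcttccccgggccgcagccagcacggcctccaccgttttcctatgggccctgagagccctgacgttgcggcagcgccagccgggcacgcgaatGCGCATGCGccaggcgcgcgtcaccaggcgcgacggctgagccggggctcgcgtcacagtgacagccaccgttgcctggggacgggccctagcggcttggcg
GTSE1-DT: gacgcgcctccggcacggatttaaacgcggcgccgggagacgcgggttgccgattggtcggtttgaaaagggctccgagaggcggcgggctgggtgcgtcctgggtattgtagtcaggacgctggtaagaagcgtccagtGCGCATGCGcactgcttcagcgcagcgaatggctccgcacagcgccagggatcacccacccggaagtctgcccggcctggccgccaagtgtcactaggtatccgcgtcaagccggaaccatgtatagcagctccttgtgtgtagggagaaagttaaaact

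The sgEPCR cells gave the response that did not enter the choice: UM171 for 24 h against DMSO for 24 h, in 3 libraries each. The fit of 12 libraries also held the control DMSO and 24 h libraries, which the choice did use. All its groups shared a common estimate of the spread, so SE and adjusted p in sgEPCR cells rest in part on those control libraries. In control cells at 24 h the members were under 1.5 times DMSO by construction. In sgEPCR cells, 15 of 35 tested members were called higher (42.9%) and 6 lower (17.1%), at an adjusted p under 0.05 in edgeR's quasi-likelihood test. Over all 15901 genes tested, 27% were called higher and 25.1% lower. The median log2 fold change was 0.42 for members and -0.01 for all tested genes. Of the other 14 tested members, 6 had a log2 fold change above 0 and 8 below. The 14 members not tested include PDCD6-DT and PRELID2P1, which had enough counts at 6 h but not in the sgEPCR fit. With the stricter limits of an adjusted p below 0.0001 and more than 2-fold, 1 member was higher (ENSG00000176593) and 3 lower (BHLHE22, ENSG00000278041 and CHST2), beside 6.99% and 3.33% of all tested genes. In TPM, 11 members had all UM171 libraries above all DMSO libraries and 2 had them all below, beside 20.5% and 4.89% of all tested genes. The split of all calls depended on scaling: 4291 higher and 3991 lower with TMM, 4928 and 3243 with upper quartile scaling, and 4384 and 1956 with total count scaling, which moved the median of all genes to 0.16. For the members both of these other scalings gave 16 higher and 5 lower.

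Without the 2 libraries with over 20% mitochondrial counts, 17 of 36 tested members were higher (47.2%) and 9 lower (25%), beside 34.5% and 36.4% of all 16360 genes then tested. The members' median was 0.41 and that of all genes was -0.0012. All 15 members called higher and all 6 called lower with every library were so called here too. MAGEH1 and LINC02285 were higher and KY, ZNF114 and ZNF883 lower only without those libraries. At the stricter limits the count was again 1 higher and 3 lower, beside 9.98% and 5.72% of all genes. With 2 libraries a group, 18 members had all UM171 libraries above in TPM and 9 all below, beside 50.2% and 31.8% of all genes. Among called members the fold of AOX2P alone moved by more than 1.5 times, its log2 fold change going from -3.33 to -2.56.

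Of the members called higher, VTI1BP2 and ANG had the largest log2 fold changes. ANG had 0.22, 0.27 and 0.58 TPM in sgEPCR DMSO and 2.41, 1.13 and 1.75 TPM in UM171, without overlap, a log2 fold change of 2.15 ± 0.36 (adjusted p = 0.0005 in edgeR's quasi-likelihood test). RNASE4, which may share its reads, had 2.42 in the same contrast. VTI1BP2 was at 0, 0 and 0.22 TPM in DMSO, the last from 4 counts, and at 0.86, 0.78 and 0.84 TPM in UM171, a log2 fold change of 3.09 ± 0.70 that rests on few counts. Both genes had every UM171 library above every DMSO library.

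Other genes that were called higher had smaller changes. ENSG00000176593, a long non-coding RNA on chromosome 19 (chr19:58002061-58011232), had 0.71, 1.26 and 1.51 TPM in DMSO and 4.91, 3.0 and 4.61 TPM in UM171 (1.78 ± 0.18). TPM1 had 6.26, 14.3 and 15.5 TPM in DMSO and 29.2, 20.4 and 30.6 TPM in UM171 (0.88 ± 0.09), and CYP4V2 had 0.97, 1.95 and 1.61 TPM and 3.34, 2.08 and 3.24 TPM (0.93 ± 0.16). In these 3 genes the libraries did not overlap. CROT (0.78 ± 0.15), DDX60 (0.42 ± 0.09) and FGD2 (1.74 ± 0.36) were called higher but their libraries overlapped in TPM, the lowest UM171 library being replicate 2, with a high mitochondrial share. RNF32 had 0.5, 0.92 and 1.05 TPM in DMSO and 2.12, 2.12 and 2.11 TPM in UM171 (1.53 ± 0.30). ZNF287 (1.17 ± 0.28), CHD9NB (1.03 ± 0.35), FNBP1P1 (0.84 ± 0.23) and C3orf70 (0.45 ± 0.11) were also higher. The libraries of ZNF287 and C3orf70 overlapped in TPM.

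ZNF540 depended on the scale. It had 2, 7 and 9 counts in sgEPCR DMSO and 15, 11 and 19 in UM171, a log2 fold change of 1.16 ± 0.28 that was called, but 0.08, 0.28 and 0.34 TPM and then 0.27, 0.18 and 0.23 TPM. RSEM gave it a length of 967 to 1161 bases in DMSO and of 2258 to 3069 bases in UM171. On log2(TPM + 1) its change was -0.00238. MAGEH1 had 1.79, 2.36 and 3.14 TPM in DMSO and 5.47, 2.24 and 4.99 TPM in UM171, and its log2 fold change of 0.46 ± 0.18 missed the limit (adjusted p = 0.051 in edgeR's quasi-likelihood test). Among list genes in sgEPCR cells, 10 of 22 tested genes of fatty acid handling were higher and 2 lower, 17 of 34 interferon-stimulated genes were higher and 3 lower, and 19 of 26 immediate early genes were higher and 3 lower, with a median log2 fold change of 1.67. Over all tested genes 27% were higher and 25.1% lower. Without the libraries of high mitochondrial share the list counts were 10 and 8 of 22, 21 and 6 of 34, and 22 and 4 of 27. The shares of all tested genes were then 34.5% and 36.4%. With all libraries LXN (0.31 ± 0.28) and KY (-0.78 ± 0.46) were not called either.

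BHLHE22 fell furthest. It had 0.33, 0.53 and 0.49 TPM in sgEPCR DMSO and 0.01, 0.03 and 0.08 TPM in UM171, from 29, 39 and 47 counts to 1, 3 and 7, a log2 fold change of -3.59 ± 0.41 (adjusted p = 3.1e-05 in edgeR's quasi-likelihood test). Among the 12 tested neuronal genes of its list 9 were higher and BHLHE22 was the 1 that was lower, while SCN3A had 5.36 ± 0.45. BHLHE22-AS1 was lower too (-1.73, adjusted p = 0.02 in the same test). AOX2P went from 0.51, 0.21 and 0.69 TPM to 0.16, 0 and 0.13 TPM (-3.33 ± 0.61), also without overlap. CHST2 had 4.89, 10.4 and 9.64 TPM in DMSO and 5.49, 2.16 and 5.57 TPM in UM171. Its log2 fold change was -1.22 ± 0.12, and its libraries overlapped in TPM because DMSO replicate 1, with the high mitochondrial share, lay at 4.89 TPM. Of 9 tested sulfotransferases 6 were lower and 2 higher in sgEPCR cells, with CHST4 at -1.57 ± 0.25 and GAL3ST4 at 2.18 ± 0.45. Beside this list and the neuronal one, 25.1% of all tested genes were lower and 27% higher. Without the libraries of high mitochondrial share, 6 of 11 tested sulfotransferases were lower and 3 higher. Of 13 neuronal genes then tested, 11 were higher and 1 lower. The shares of all tested genes were then 36.4% lower and 34.5% higher. The 6 were completed by the long non-coding ENSG00000278041 (-1.55 ± 0.17), the pseudogene OR52K3P (-0.84 ± 0.30) and ENSG00000283486 (-1.76 ± 0.43), which has no annotation record. In each of these genes the libraries overlapped in TPM.

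**Figure D5:**
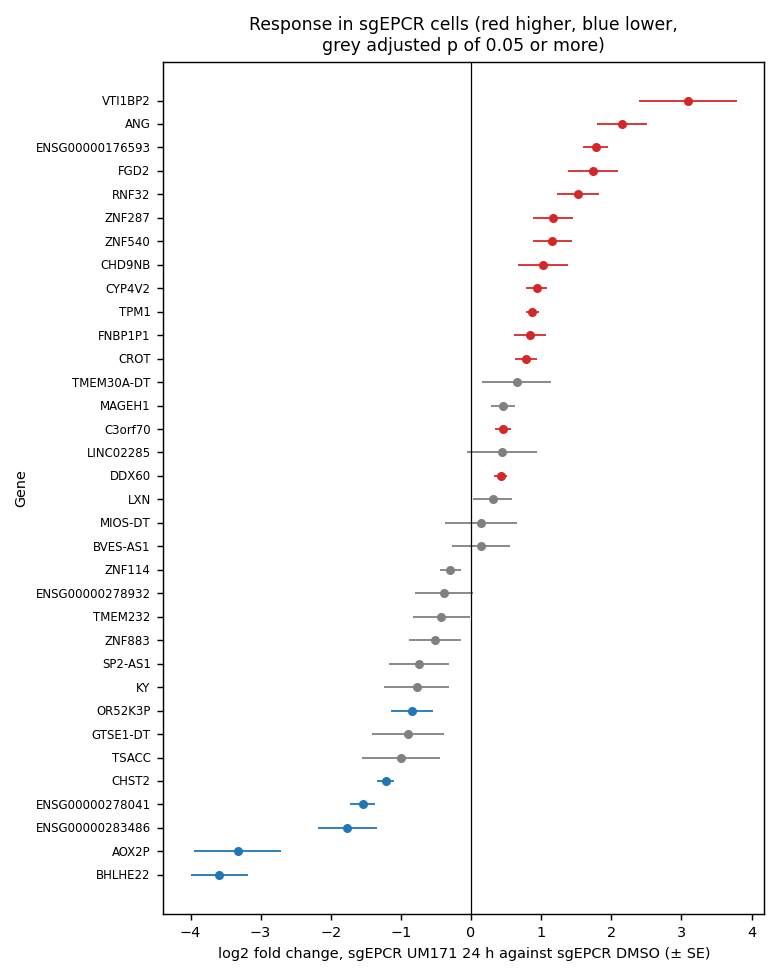
Change of 34 of the 35 tested members in sgEPCR cells. The x axis is the log2 fold change of UM171 24 h against DMSO with its SE, from 3 libraries each in edgeR, with red points called higher, blue points called lower and grey points at an adjusted p of 0.05 or more. The points run from BHLHE22 at -3.59 to VTI1BP2 at 3.09.

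Members started lower in sgEPCR cells. Of the 37 genes, 31 had a lower mean TPM in sgEPCR DMSO than in control DMSO, with a median ratio of 0.58, where 76.0% of all tested genes were lower with a median of 0.78. Without sgEPCR DMSO replicate 1 the count was again 31, with a median of 0.64, beside 60.03% and 0.92 over all tested genes. The control libraries entered the choice, so this difference has no test, and the labels of both DMSO groups give different hours. The 15 members called higher were all below control DMSO in sgEPCR DMSO, with a median ratio of 0.42, and had a median of 0.96 of control DMSO in sgEPCR cells in UM171. So were 11 of the 14 members not called, with a median of 0.64, 3 of the 6 called lower, with a median of 0.99, and 83.6% of all genes called higher, with a median of 0.68. The same sgEPCR DMSO libraries enter the level and the call, so a low level there favours a call as higher. ANG, for example, had 1.49 to 1.98 TPM in control DMSO and 1.28 to 2.61 TPM in control cells at 24 h, and 1.13 to 2.41 TPM in sgEPCR cells in UM171.

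Side by side, the 24 h changes in control and sgEPCR cells from the same fit were -0.08 and 2.15 for ANG, 0.53 and 0.88 for TPM1, 0.45 and -1.22 for CHST2 and -3.11 and -0.84 for OR52K3P. The control values were bounded by the choice, and the difference between the 2 kinds of cells was not tested. In 2 members, BVES-AS1 and VTI1BP2, every sgEPCR library in UM171 was above every sgEPCR DMSO library while every control library at 24 h was below every control DMSO library, as in 4.16% of all genes tested in sgEPCR cells.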

How the data were processed

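RNA-seq of 21 poly(A) libraries was taken as deposited. Per the labels and the submitters' processing notes, CASAVA 1.8.2, Trimmomatic 0.35, STAR 2.5.1b and RSEM 1.2.28 were used with GRCh38, while the methods name kallisto and sleuth. From RSEM the authors deposited expected counts, which were not normalized, and TPM, whose total is equal in all libraries. They also deposited gene lengths, which served only to describe isoforms. Each library lists 58219 entries, and 45 Y pseudoautosomal entries were summed with X. Expected counts were rounded and tested with edgeR 4.0.16 in R 4.3.3 (filterByExpr, TMM, quasi-likelihood test, Benjamini-Hochberg over all tested genes). The time course fit had 15 libraries and 16575 genes, the sgEPCR fit 12 libraries and 15901 genes. SE is of the log2 fold change. Libraries of a group differed by more than sampling noise. Chi-square per degree of freedom between 2 libraries of a group was 1.76 to 49.96 in control cells. It was 514.1 to 717.8 for sgEPCR pairs with a library of high mitochondrial share, and 4.69 and 1.65 for the other sgEPCR pairs. The common coefficient of variation beyond counting noise was 0.187 in the sgEPCR fit and 0.056 in the time course fit.

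The members and lists were chosen with earlier results of these data known, and members not tested failed the filter on low counts. Genes named are the members with the highest 6 h ratio, the highest 6 h TPM, called in sgEPCR cells, in a list, or of known function, those beside each limit, and for lists the 3 largest changes. Alternatives were limma 3.58.1 (log2 of TPM with 1 added), DESeq2 1.42.0, other scalings, filters, limits, a replicate block and leaving out libraries. The smallest signal considered was 3 counts, which covers counting error only. The tests were tried on simulated data. Gene positions are from GENCODE 44, and figures were drawn with matplotlib 3.10.9. Values of some single genes are not reported here.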

Additional observations from a re-analysis of the deposited data

Results flagged for a closer look

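For 2 of the 49 genes all sgEPCR libraries in UM171 lay above all sgEPCR DMSO libraries, while all control libraries at 24 h lay below all control DMSO libraries, as in 4.16% of all genes tested in sgEPCR cells. For BVES-AS1 the log2 ratio of mean TPM with 0.1 added was 0.89 in sgEPCR cells and -1.20 in control cells, a difference of 2.10. For VTI1BP2 it was 2.42 and -1.44, a difference of 3.86, and its sgEPCR DMSO libraries held 0, 0 and 4 counts. The differences were not tested, and the control values were limited by the choice of genes. On counts, BVES-AS1 in sgEPCR cells had a log2 fold change of 0.14 ± 0.41 (SE) and was not called.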

How the results depend on the processing

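Which genes meet the limits depends on the scale. The count of 49 became 23 with 1 TPM added to each mean (14 shared with the 49), 23 on CPM with TMM scaling (11 shared), 24 on TPM scaled by the upper quartile (18 shared) and 95 at 1 TPM or more at 6 h. It ran from 45 to 56 when any of the 15 libraries was left out, sharing 34 to 37 of the 49 without a DMSO library, 35 to 42 without a 6 h library and 45 to 49 without a later one, and the median in place of the mean gave 47 genes, 26 of them shared. The limit of 50 counts, added after seeing the data, left 37.

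In sgEPCR cells, members called higher fell from 15 to 9 and members called lower from 6 to 2 with limma on log2(TPM + 1). It called 3196 of all genes against 8282, with 2639 higher and 557 lower in place of 4291 and 3991. With at least 10 counts in every library 15 members were tested, 9 higher and 3 lower. At an adjusted p under 0.0001 and over 2-fold, 1 was higher and 3 lower, and all genes called were 1642. Leaving out a library gave 14 to 17 higher, 5 to 8 lower and 7329 to 9285 of all genes. At 6 h, 37 called members became 23 of 23 tested with at least 10 counts in every library and 24 at the stricter limits. No label says what the replicate numbers stand for. Deviations of same-numbered sgEPCR libraries correlated at -0.61, -0.60 and 0.45, while the 2 libraries of high mitochondrial share, which carry different numbers, correlated at 0.69, so these values do not settle whether the numbers pair the samples. With the number as a replicate block 14 members were higher and 5 lower, 6306 of all genes were called, and at 6 h 37 members. For the filter of 10 counts, single libraries left out and the block, calls over all genes are not split by direction here. Nothing is therefore read from the split of the members at these settings.

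The sign turned for ZNF540 with limma (-0.00238), for TMEM232 without the libraries over 20% mitochondrial (0.0513), and for MIOS-DT with limma (-0.143) and without those libraries (-0.237). When a library was left out, the log2 fold change ran from -0.165 to 0.605 for BVES-AS1 (below 0 without DMSO replicate 2 or 3 or UM171 replicate 2), from -0.918 to 0.00904 for ZNF883 (above 0 without DMSO replicate 1), from -0.00121 to 0.834 for LINC02285 (below 0 without UM171 replicate 3) and from -0.232 to 0.599 for MIOS-DT (below 0 without DMSO or UM171 replicate 2). The cause was not tested. Of 21 called members, 10 passed the limit in every alternative that gave a value, while OR52K3P missed it in 10 alternatives and CHD9NB in 7.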
